A study of Mus musculus with 66 samples.

Results

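The genes described here are the Id inhibitors of bHLH transcription factors (Id1, Id2 and Id3) and 7 genes of BMP-SMAD signalling (Bmp4, Bmpr1a, Smad1, Smad5, Smad4, Smad6 and Smad7) in C2C12 myoblasts depleted of Paf1C subunits. They were taken by gene symbol, and all 10 were listed among the 15856 genes of the 3'READS table, where they hold 50 of 59578 poly(A) (pA) sites. Of the 9999 genes in the RNA-seq table, 3 were members (Id3, Smad5 and Smad4), and the RNA-seq of the other 7 was not analysed here. The set was selected on measured values of these same libraries, their gene levels and pA site reads in the knockdowns against siCtrl. The values of its members are therefore given as a description with no p-value. Where a test over all genes called a member, the call is listed beside the share of all genes called and restates the selection, so nothing is read from it.

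C2C12 is a mouse myoblast line that can be induced to form myotubes. Undifferentiated cells were transfected for 48 h with 50 nM of a non-specific siRNA, named siCtrl here, or of 1 directed at a subunit of Paf1C, a complex that travels with RNA polymerase II: siPaf1, siCdc73 or siSki8 (Ski8 is the product of the gene Wdr61). Each assay had 7 libraries, with siCtrl, siPaf1 and siCdc73 in batch 1 and batch 2 and siSki8 in batch 2 only, so siSki8 has no replicate and all 3 knockdowns are compared with the same siCtrl libraries. The cells of every group are of 1 line, in which the subunits were depleted by siRNA and not deleted. The labels do not say whether the batches were separate cultures, so errors and p-values measure the spread between these libraries.

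Id proteins have a helix-loop-helix domain but no DNA-binding region. They bind E proteins such as those encoded by Tcf3 and Tcf4, and so keep MyoD and related bHLH factors from binding DNA, which holds myoblasts undifferentiated. BMP ligands such as Bmp4 bind receptors that include the type I receptor Bmpr1a, which phosphorylates Smad1 and Smad5. These enter the nucleus with the common partner Smad4 and activate target genes, among them the Id genes and the inhibitory Smads, Smad6 and Smad7, which feed back on the pathway. BMP treatment of C2C12 cells is known to turn them from muscle to osteoblast fate.

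3'READS sequences the RNA end next to the poly(A) tail, so each read marks a used pA site, and the 50 sites of the members comprised 37 in 3'-most exons, 7 in introns, 1 in an internal exon and 5 upstream antisense (UA) sites. Intronic sites made up 14% of the members' sites and 28.1% of all sites, and UA sites 10% and 5.53%. The sequences that carry the main signal at the Id genes are given here as 30 bases ending at the pA site, written 5′ to 3′ on the strand of the RNA, with the poly(A) signal hexamer (AATAAA or ATTAAA) in capitals (build mm9).
Id1, 3'-most exon, chr2:152563117-152563146, plus strand: ttgttgttATTAAAcaaacactttagataa
Id2, 3′ end, chr12:25778664-25778693, minus strand: aagattatAATAAAatgtgtctgacatcaa
Id3, 3'-most exon, chr4:135701273-135701302, plus strand: acattttgcatAATAAAccatttttgaaca
Id3, antisense, chr4:135697409-135697438, minus strand: ctagtgctggtAATAAAggatccaccacta
Id3, antisense, chr4:135697619-135697648, minus strand: atttggAATAAAttattctctgagcctcaa

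The hexamer starts 22 bases from the window's 3′ end at Id1 and Id2 and 19 bases at the main Id3 site, and it starts 19 and 24 bases from the end at the antisense sites of Id3. Within the last 40 bases, either hexamer was present at 19 of the 37 sites of the members in 3'-most exons, where 58.6% of all such sites held one, and at 3 of the 5 UA sites, where 55.6% did. A single site carried nearly all reads of each Id gene. The main Id1 site held 5760 of 5905 sense reads, the main Id2 site 8814 of 9328 and the main Id3 site 53806 of 56183. The Id1 and Id3 sites lie in annotated UTR exons, and the Id2 site lies just past the annotated end of its gene.

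Total reads per library ran from 2796693 to 8160386 in RNA-seq and from 5302728 to 14340927 in 3'READS, and levels are given in CPM, reads per 1000000 of the effective library size. The targeted genes were low in the libraries labelled with their siRNA. In 3'READS, Paf1 stood at 19.5 and 16.8 CPM in siCtrl and at 2.97 and 2.84 in siPaf1, Cdc73 at 6.45 and 10.1 in siCtrl and at 0.651 and 3.19 in siCdc73, and Wdr61 at 20.7 in siCtrl of batch 2 and 1.37 in siSki8. The myoblast markers Des, Cdh15, Itga7 and Myf5 were detected in every 3'READS library, whereas Myod1 had at most 0.529 CPM. The myotube list (6 genes) summed to 27.1 to 120.2 CPM in 6 libraries and to 257 in siPaf1 of batch 2, of which Myh3 made up 168. In siPaf1 of batch 2, Myh3, Ckm, Acta1 and Tnnt3 were above the control of the batch, and Myog and Tmem8c were below it. That library also held 199 genes at over 20 times their level in every other 3'READS library, which took 0.995% of its reads and included 0 members. Markers of osteoblasts (1 of 5 listed), adipocytes (3 of 4) and macrophages (3 of 4) summed to at most 0.426, 2.65 and 7.60 CPM in 3'READS, and Sp7, Adipoq, Ptprc and Pecam1 reached at most 0.426, 0.595, 0.355 and 0.516 CPM. In RNA-seq the adipocyte markers summed to 12.2 to 137 CPM, almost all from Pparg, with the highest value in siSki8. The endothelial list in 3'READS stood at 23.4 and 28.5 CPM in siCtrl and at 3.48 to 15.9 in the knockdowns. Kdr made up almost all of it in siCtrl and most of it in the knockdowns, such as 2.28 of 3.53 CPM in siSki8. In RNA-seq the 2 of its 3 genes listed, Kdr among them, summed to at most 1.18 CPM, with Kdr at 0.336 CPM at most. The 3'READS sum was lower in the same libraries in which members differed from the controls, and its part in any result was not tested.

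In control cells the 10 genes covered a wide range of levels. Since 3'READS yields 1 read per RNA end, its CPM does not depend on transcript length. Id3 was the most abundant member, with a mean of 454 CPM over the 2 siCtrl libraries, higher than 97.7% of the 15777 genes with reads. Id1 followed with 94.8 CPM, Id2 with 87.9, Smad1 with 48.2, Bmpr1a with 34.3, Smad4 with 24.0, Smad5 with 11.2, Smad6 with 9.04, Smad7 with 6.18 and Bmp4 with 1.41. Not all neighbours in this order are apart. The range of Id1 (39.7 to 149.9 CPM) took in that of Id2 (87.3 to 88.5) and overlapped that of Smad1 (37.2 to 59.3), which in turn overlapped that of Bmpr1a (26.1 to 42.5). Likewise the range of Smad6 (4.73 to 13.4 CPM) took in those of Smad5 (9.30 to 13.1) and Smad7 (5.55 to 6.81). Id3, Smad4 (22.7 to 25.4) and Bmp4 stood apart from their neighbours. Id1 differed most between the controls, by 3.77 times, and Smad6 by 2.82 times, whereas the other 8 genes differed by at most 1.63 times.

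Id2 had the steadiest control levels and lay apart in every knockdown. Its 3'READS level was 87.3 and 88.5 CPM in siCtrl, 159.8 and 146 in siPaf1, 174 and 217 in siCdc73 and 58.6 in siSki8. All 4 siPaf1 and siCdc73 libraries were above both controls, and the siSki8 library was below both. Within a batch, Id2 was 1.83 and 1.65 times its control in siPaf1, 1.99 and 2.45 times in siCdc73 and 0.662 times in siSki8. The fitted log2 difference was 0.80 ± 0.37 (SE, n = 2 libraries a group) for siPaf1, 1.15 ± 0.37 for siCdc73 and -0.58 ± 0.46 (n = 1) in siSki8. The smaller Id2 sites upstream of the main one held 0.859% and 3.85% of its reads in siCtrl, 2.26% and 7.80% in siPaf1, 1.75% and 6.95% in siCdc73 and 9.13% in siSki8. These shares were higher in batch 2 than in batch 1 in each replicated group.

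Id3 had the largest number of reads of the members, from 1399 to 22953 per 3'READS library. Its level was 494 and 413 CPM in siCtrl, 717 and 1518 in siPaf1, 611 and 1121 in siCdc73 and 159 in siSki8. The 4 siPaf1 and siCdc73 libraries exceeded both controls, and those of batch 2 exceeded those of batch 1. Within a batch, Id3 was 1.45 and 3.67 times its control in siPaf1, 1.24 and 2.71 times in siCdc73 and 0.385 times in siSki8. The siPaf1 library of batch 2, the highest, is the one with the highest sum of myotube markers, mostly from Myh3. The part of these markers in this value was not tested. The fitted log2 difference was 1.30 ± 0.53 for siPaf1, 0.93 ± 0.53 for siCdc73 and -1.51 ± 0.69 for siSki8. Without the siPaf1 library of batch 2, the value for siPaf1 with a batch term was 0.80, against 1.17 ± 0.32 with it.

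In RNA-seq, which counted reads in the coding region, the 2 controls of Id3 lay far apart. Id3 stood at 916 and 198 CPM in siCtrl, 922 and 1092 in siPaf1, 852 and 591 in siCdc73 and 108 in siSki8. The deposited RPKM values, which are scaled by length, were 1023 and 209 in siCtrl, 1052 and 1164 in siPaf1, 887 and 561 in siCdc73 and 94.2 in siSki8. In batch 1 the 3 libraries lay close together, with Id3 at 1.01 times its control in siPaf1 and 0.931 times in siCdc73. In batch 2 it was 5.52 times its control in siPaf1, 2.99 times in siCdc73 and 0.546 times in siSki8. On the log2 scale the control of batch 2 minus that of batch 1 was -2.21 in RNA-seq and -0.26 in 3'READS. The fitted log2 difference in RNA-seq was 0.85 ± 0.66 for siPaf1, 0.37 ± 0.66 for siCdc73 and -2.36 ± 0.91 for siSki8, and that for siCdc73 turned to -0.35 without the siCtrl library of batch 2. In these bulk libraries, fewer cells that express a gene and less of its RNA per cell cannot be told apart.

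**Figure D1:**
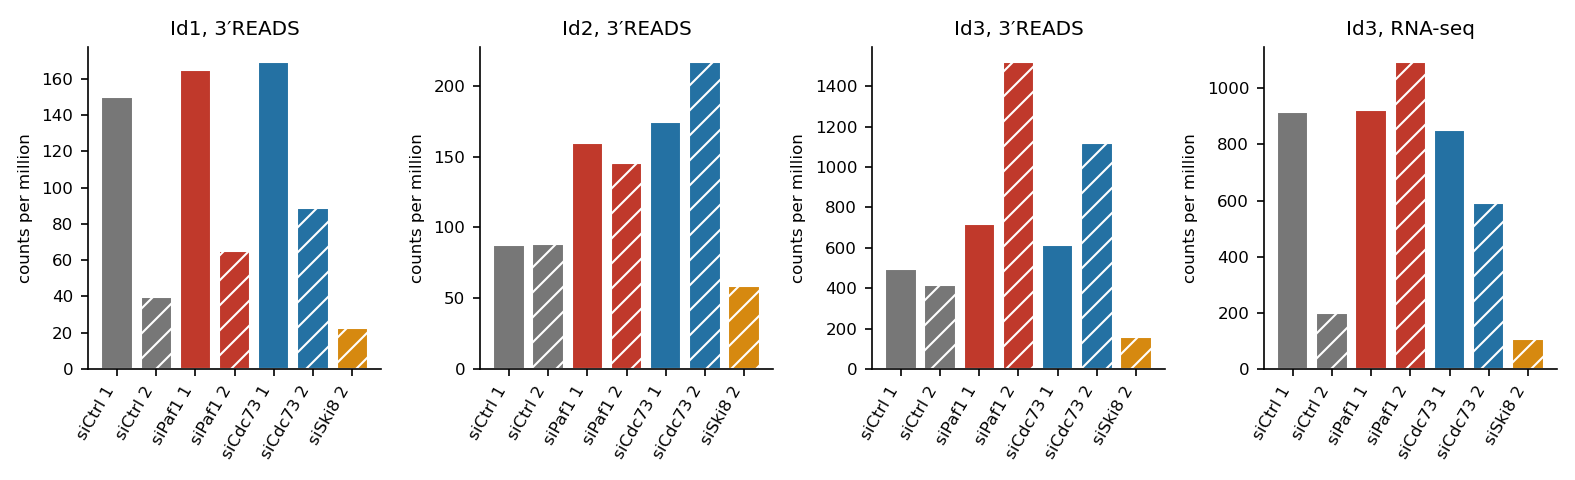
Levels of Id1, Id2 and Id3 in 3'READS and of Id3 in RNA-seq, in CPM for each of the 7 libraries, with 1 bar per library and batch 2 hatched. Id2 stands at 146 to 217 CPM in the 4 siPaf1 and siCdc73 libraries against 87.3 and 88.5 in siCtrl, whereas for Id1 every batch 1 library is above every batch 2 library.

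Id1 followed the batch. It stood at 149.9 and 39.7 CPM in siCtrl, 165 and 64.9 in siPaf1, 169 and 88.7 in siCdc73 and 22.6 in siSki8. Every library of batch 1 was above every library of batch 2, and on the log2 scale the control of batch 2 minus that of batch 1 was -1.91. Within a batch, Id1 was 1.10 and 1.63 times its control in siPaf1, 1.13 and 2.23 times in siCdc73 and 0.570 times in siSki8. The log2 difference was 0.28 ± 0.75 for siPaf1 without a batch term and 0.40 ± 0.29 with it, and 0.44 ± 0.75 and 0.66 ± 0.29 for siCdc73. Without a batch term, the siPaf1 value turned negative, to -0.55 at the lowest, when siCtrl of batch 2 or siPaf1 of batch 1 was left out, and the siCdc73 value, to -0.22, without siCtrl of batch 2 or siCdc73 of batch 1. In siSki8 it was -2.05 ± 1.02 without the batch term and -1.09 ± 0.40 with it.

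Added together, the 3 Id genes came to 731 and 542 CPM in siCtrl, 1042 and 1729 in siPaf1, 955 and 1426 in siCdc73 and 240.4 in siSki8. Id3 made up 64.0% to 87.8% of that sum in every library. All 3 Id genes were above the control of their batch in all 4 siPaf1 and siCdc73 libraries and below it in siSki8, a pattern held by 898 of the 12579 genes with enough reads for a test (7.14%). Nothing is read from this share, since the members were chosen with such values in view. The differences between siSki8 and the other knockdowns were not tested.

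The ligand Bmp4 was close to the limit of detection. Its 3'READS reads numbered 10 and 14 in siCtrl, 13 and 73 in siPaf1, 1 and 7 in siCdc73 and 5 in siSki8, or 1.50 and 1.32 CPM, 1.68 and 4.83 CPM, 0.217 and 0.497 CPM and 0.569 CPM. The siPaf1 library of batch 2 was higher than all others, and the siCdc73 and siSki8 libraries were below both controls. With so few reads the log2 difference was 1.11 ± 0.84 for siPaf1, -1.46 ± 0.80 for siCdc73 and -1.06 ± 1.02 for siSki8.

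Bmpr1a, the receptor, stood at 26.1 and 42.5 CPM in siCtrl, 38.5 and 55.4 in siPaf1, 32.6 and 65.7 in siCdc73 and 55.6 in siSki8. It was above the control of its batch in all 5 knockdown libraries, by 0.32 to 0.63 on the log2 scale, but the groups overlapped, since the control of batch 2 was higher than the siPaf1 and siCdc73 libraries of batch 1. Its reads fell mainly on a proximal and a distal site of the 3'-most exon, which differed between knockdowns (see the plot of isoform shares). Neither of these windows, again 30 bases ending at the site on mm9 and printed to set them beside the Id sites, holds a hexamer.
Bmpr1a, distal, chr14:35224252-35224281, minus strand: tttttcagtaaataaccttattttagtata
Bmpr1a, proximal, chr14:35226895-35226924, minus strand: tttttgttataaaaagccacctatccagaa

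The proximal site took 18.8% and 26.7% of the reads of this pair in siCtrl, 16.6% and 29.5% in siPaf1, 43.8% and 44.2% in siCdc73 and 27.6% in siSki8. For this pair, only the siCdc73 libraries lay above both controls by more than the 95% Wilson intervals, 35.6% to 52.4% and 40.7% to 47.7% against an upper bound of 31.6% in the higher control. Over all 4 sites of the exon, the upstream pair held 23.6% and 26.7% in siCtrl and 18.1% and 27.4% in siPaf1. It held 50.7% and 49.1% in siCdc73 and 35.8% in siSki8. By that measure the siSki8 interval (31.7% to 40.1%) also lay above both controls, whose upper bounds were 30.4% and 30.9%. The proximal site stood at 4.35 and 8.70 CPM in siCtrl and at 12.4 and 24.1 in siCdc73, while the distal site stood at 18.8 and 23.9 CPM in siCtrl and at 15.9 and 30.5 in siCdc73. The log2 difference in the ratio of proximal to distal reads was 1.39 ± 0.68 for siCdc73, -0.02 ± 1.82 for siPaf1 and 0.36 ± 0.80 for siSki8. Each SE is the size of the difference divided by the square root of its F statistic. That is unstable for a difference as small as the siPaf1 one, so its SE is not a measure of precision. The Wilson intervals cover counting error only, since the reads carry no molecular identifiers.

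Among the receptor-regulated Smads and the common Smad, Smad4 and Smad5 had the narrowest ranges of the members over the 7 libraries, 1.71 and 2.17 times, while Smad1 ranged over 2.68 times and Bmpr1a over 2.52 times. Smad1 stood at 37.2 and 59.3 CPM in siCtrl, 34.2 and 50.7 in siPaf1, 28.7 and 55.0 in siCdc73 and 76.7 in siSki8, below the control of its batch in the 4 siPaf1 and siCdc73 libraries by 0.11 to 0.37 on the log2 scale. Smad5 stood at 9.30 and 13.1 CPM in siCtrl, 7.74 and 14.8 in siPaf1, 8.90 and 11.4 in siCdc73 and 16.8 in siSki8. Smad4 stood at 22.7 and 25.4 CPM in siCtrl, 22.3 and 29.9 in siPaf1, 18.7 and 22.3 in siCdc73 and 31.9 in siSki8. The siPaf1 and siCdc73 libraries overlapped the controls for these 3 genes, except that Smad4 in siCdc73 was just below both, and siSki8 was above both controls for each.

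In RNA-seq, Smad5 stood at 90.8 and 50.6 CPM in siCtrl, 97.1 and 72.6 in siPaf1, 78.0 and 40.5 in siCdc73 and 75.7 in siSki8. Smad4 stood at 215 and 97.7 CPM in siCtrl, 204 and 102 in siPaf1, 162 and 94.8 in siCdc73 and 113 in siSki8. The batches lay further apart than the knockdowns for Smad4. Without a batch term, no fitted log2 difference of either gene exceeded 0.47 in size in this assay, with SEs of 0.47 to 0.67. With the batch term, Smad5 in siSki8 reached 0.52 ± 0.31. On the deposited RPKM scale, which allows levels to be compared between genes, Smad4 (52.3 and 22.5 in siCtrl) was above Smad5 (26.1 and 13.8) and Id3 (1023 and 209) was above both.

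Site shares were also compared at Smad1 and Smad5. The proximal of the main sites of Smad1 held 56.5% and 70.0% of reads in siCtrl, 37.0% and 55.3% in siPaf1, 39.3% and 62.9% in siCdc73 and 68.7% in siSki8, so that it was below the control of its batch in all 5 libraries, with a log2 difference in the ratio of -1.02 ± 0.77 for siPaf1 and -0.71 ± 0.78 for siCdc73. At Smad5, sites labelled as intronic held 9.68% and 5.76% of reads in siCtrl, 20.0% and 24.2% in siPaf1, 14.6% and 18.6% in siCdc73 and 7.43% in siSki8. Both siPaf1 shares and both siCdc73 shares exceeded both control shares, but on only 41 to 223 reads per library, and the Wilson intervals overlapped in batch 1. Of the 3 Smad5 sites so labelled, 2 lie in an exon and 1 in an intron of the annotation used here.

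**Figure D2:**
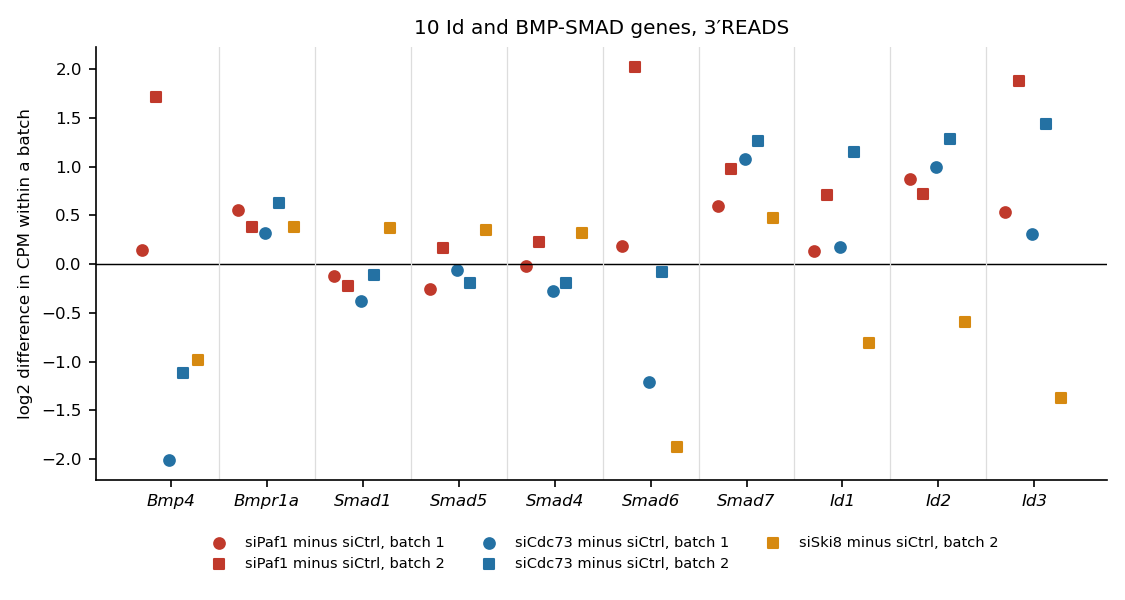
Log2 difference in 3'READS CPM between each knockdown library and the siCtrl library of its batch for the 10 genes, with circles for batch 1 and squares for batch 2 (log2 values have a prior count of 2, which pulls genes with few reads such as Bmp4 towards 0). The Id genes and Smad7 lie above 0 in all 4 siPaf1 and siCdc73 libraries, Smad1, Smad5 and Smad4 lie within 0.37 of 0, and in siSki8 the Id genes, Smad6 and Bmp4 lie below 0.

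The 2 inhibitory Smads differed from each other. Smad6, which competes with Smad4 for receptor-activated Smads, stood at 13.4 and 4.73 CPM in siCtrl, 15.2 and 19.9 in siPaf1, 5.65 and 4.47 in siCdc73 and 1.14 in siSki8. The siPaf1 libraries were above both controls, the siCdc73 libraries were in or just under the range of the controls, and the siSki8 library, with 10 reads, was the lowest. The log2 difference was 0.95 ± 0.56 for siPaf1, -0.81 ± 0.56 for siCdc73 and -2.77 ± 0.79 for siSki8. Within a batch the siPaf1 value rested on batch 2, at 4.21 times its control against 1.14 times in batch 1. The fitted siSki8 value draws on both controls, which differ for this gene. Against the control of its own batch, Smad6 in siSki8 was 0.241 times as high, a log2 difference of -1.88.

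Smad7, which blocks type I receptors, stood at 5.55 and 6.81 CPM in siCtrl, 8.52 and 13.6 in siPaf1, 11.9 and 16.7 in siCdc73 and 9.56 in siSki8. All 5 knockdown libraries were above both controls. In siPaf1 and siCdc73 most of the added reads ended upstream of the 3'-most exon, and in siSki8 most ended in it. Sites in its introns and in an internal exon lay 873 to 13856 bases from the transcription start. In siCtrl they held 0 of 37 reads in batch 1 (95% Wilson interval up to 9.41%) and 3 of 72 (4.17%, up to 11.5%) in batch 2. They held 37 of 66 reads (56.1%, 95% Wilson interval 44.1% to 67.4%) and 80 of 206 (38.8%, 32.4% to 45.6%) in siPaf1, 35 of 55 (63.6%, 50.4% to 75.1%) and 106 of 235 (45.1%, 38.9% to 51.5%) in siCdc73 and 7 of 84 (8.33%, 4.10% to 16.2%) in siSki8. The siPaf1 and siCdc73 intervals lay apart from those of siCtrl and siSki8.

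Split by isoform, the upstream sites of Smad7 stood at 0 and 0.284 CPM in siCtrl, 4.78 and 5.29 in siPaf1, 7.60 and 7.52 in siCdc73 and 0.796 in siSki8. The 3'-most exon stood at 5.55 and 6.52 CPM in siCtrl, 3.74 and 8.33 in siPaf1, 4.34 and 9.16 in siCdc73 and 8.76 in siSki8, so that in batch 1 it was lower in both knockdowns than in the control and in batch 2 higher. The upstream reads came mainly from 2 of 4 sites, 1 in an exon 873 bases from the start, and 1 in an intron 13856 bases from it. The exon site had 0 and 1 reads in siCtrl, 14 and 32 in siPaf1, 12 and 55 in siCdc73 and 7 in siSki8, and the intron site had 0 and 0, 21 and 36, 10 and 24, and 0. The fitted log2 difference in the ratio of upstream to 3'-most reads was 4.47 ± 0.98 for siPaf1, 4.48 ± 0.98 for siCdc73 and 1.61 ± 0.84 for siSki8. It depends on the prior count, since 1 control has 0 upstream reads.

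**Figure D3:**
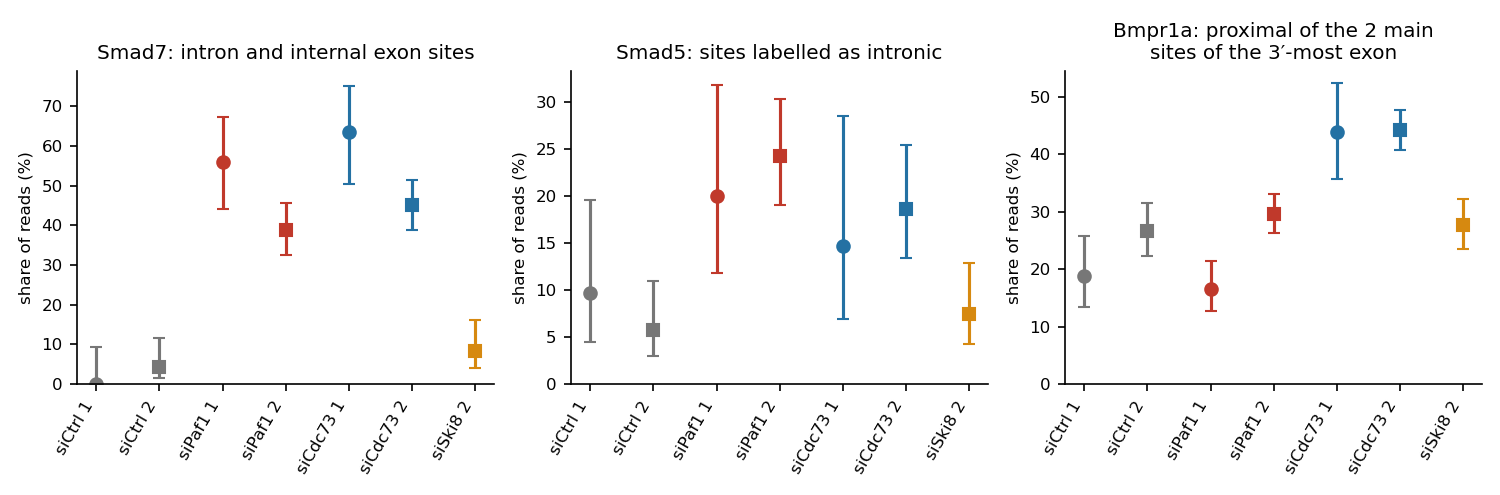
Share of 3'READS reads, in percent with 95% Wilson intervals, at the intron and internal exon sites of Smad7, the Smad5 sites labelled as intronic and the proximal of the 2 main Bmpr1a sites, for each of the 7 libraries (circles batch 1, squares batch 2). Smad7 shares are 38.8% to 63.6% in siPaf1 and siCdc73 and at most 8.33% in siCtrl and siSki8, and Bmpr1a is set apart in siCdc73 at 43.8% and 44.2%.

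The antisense sites of Id3 were nearly silent in control cells. Upstream antisense RNA is made when polymerase starts from a promoter in the direction away from the gene, and it usually ends early at a pA site. Both Id3 sites lie on the minus strand of chr4, 2003 and 1793 bases upstream of the Id3 start at 135699412 on mm9, inside no annotated gene, and the next annotated gene on that side, a U6 snRNA, ends 3896 and 4106 bases away from them. Their combined reads numbered 1 and 4 in siCtrl, 87 and 157 in siPaf1, 52 and 139 in siCdc73 and 7 in siSki8. That amounts to 0.150 and 0.378 CPM in siCtrl, 11.2 and 10.4 in siPaf1, 11.3 and 9.87 in siCdc73 and 0.796 in siSki8. The 4 siPaf1 and siCdc73 libraries thus had antisense levels between 9.87 and 11.3 CPM, while their sense levels of Id3 ranged from 611 to 1518 CPM.

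Set against sense reads, the Id3 antisense sites had 0.304 and 0.915 reads per 1000 sense reads in siCtrl, 15.7 and 6.84 in siPaf1, 18.5 and 8.80 in siCdc73 and 5.00 in siSki8. Over all genes together the antisense sites had from 1.38 (siCtrl of batch 2) to 2.26 (siCdc73 of batch 1) reads per 1000 sense reads, and in each library's own comparison Id3 was below the all-gene ratio in siCtrl and above it in each knockdown. Within a batch the log2 ratio, with 0.5 added to both counts, was above its control by 5.11 and 2.74 in siPaf1, 5.36 and 3.10 in siCdc73 and 2.38 in siSki8. The siSki8 value reflects 7 antisense reads and fewer sense reads than in any other library. The fitted log2 difference in the ratio was 3.34 ± 0.67 for siPaf1, 3.64 ± 0.69 for siCdc73 and 2.59 ± 0.87 for siSki8.

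Use of the 2 antisense sites was unequal. The site nearer the Id3 start had 1 and 4 reads in siCtrl, 79 and 79 in siPaf1, 45 and 110 in siCdc73 and 6 in siSki8. The farther one had 0 and 0 in siCtrl, 8 and 78 in siPaf1, 7 and 29 in siCdc73 and 1 in siSki8, so it was about as used as the nearer one only in siPaf1 of batch 2. The antisense site of Id2 had 4 reads, all in siCdc73 of batch 2, and the 2 antisense sites of Smad7 had 21 and 3 reads over the 7 libraries.

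**Figure D4:**
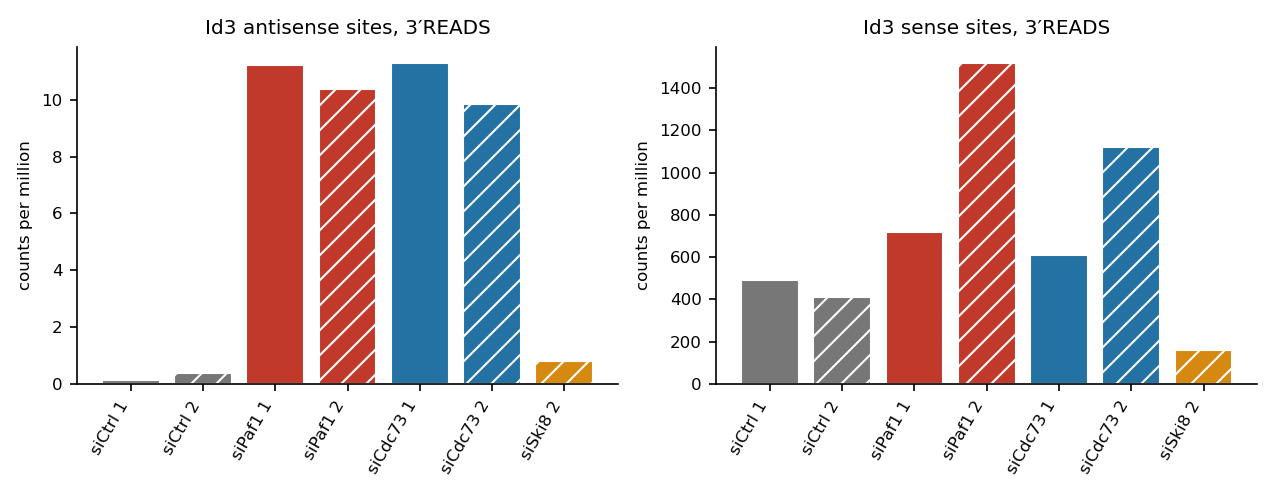
CPM at the antisense sites (left) and the sense sites (right) of Id3 in each 3'READS library, with batch 2 hatched and an axis for each panel that starts at 0. Antisense levels are 9.87 to 11.3 CPM in the siPaf1 and siCdc73 libraries and at most 0.796 CPM in the others, while sense levels range from 159 to 1518 CPM.

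The promoters of Id2 and Id3 (that of Id1 was not searched here) and of 5 other members were searched, on both strands, for letters that Smads are known to bind (GGCGCC and CAGAC), for the E-box CANNTG and for TATAAA, in 300 bases from 250 before to 50 after the start (RefSeq, GRCm38.p6). Id3 held CAGAC at 2 places and Id2 held GGCGCC at 1 place and CANNTG at 1 place. GGCGCC was also present in Bmpr1a and in 2 overlapping Smad5 promoters, and CAGAC in another Smad5 promoter, while Smad1, Smad6 and Bmp4 held neither. Among 32851 promoters of this length, 49.6% held CAGAC, 11.9% GGCGCC, 72.3% CANNTG and 13.6% TATAAA, so CAGAC and CANNTG are common letters. The 30 bases around each Smad motif in Id2 and Id3 are shown because Id genes are known targets of BMP-SMAD signalling, with the motif in capitals (in the second Id3 line it is read on the opposite strand).
Id3, 167 bases before the start, chr4:136143643-136143672, plus strand: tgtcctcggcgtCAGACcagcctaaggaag
Id3, 68 bases before the start, chr4:136143742-136143771, plus strand: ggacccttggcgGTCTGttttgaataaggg
Id2, 231 bases before the start, chr12:25096306-25096335, minus strand: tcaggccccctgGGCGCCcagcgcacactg

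Across all members, 7 of 10 were above the control in both batches of siPaf1 (all but Smad1, Smad5 and Smad4), where 35.2% of the 12579 genes were, and 1 (Smad1) was below in both, where 33.6% of genes were. In siCdc73, 5 were above (Id1, Id2, Id3, Smad7 and Bmpr1a; 37.6% of genes) and 5 below (37.0%), and in siSki8, with 1 batch, 5 were above (Smad1, Smad5, Smad4, Smad7 and Bmpr1a; 47.5%) and 5 below (48.7%). The median log2 difference of the members was 0.63 in siPaf1, 0.17 in siCdc73 and -0.14 in siSki8, and that of all genes was 0.07, 0 and 0.

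All 10 members passed the filter on low counts in 3'READS, as did all 3 in RNA-seq. With the main test, edgeR without a batch term, 0 members were called in either assay, and 0 of all genes were, which is 0.0% for each knockdown, while DESeq2 called 448, 641 and 0 genes in 3'READS and 368, 518 and 5 in RNA-seq for siPaf1, siCdc73 and siSki8. At an unadjusted p under 0.05, edgeR had 891 genes higher and 812 lower in siPaf1, 870 and 1059 in siCdc73 and 178 and 241 in siSki8 in 3'READS, and 572 and 584, 648 and 729, and 160 and 201 in RNA-seq. DESeq2 called 1 member (Id2) in 3'READS of siCdc73 and 0 elsewhere. With the batch as a block, edgeR called 2 members in 3'READS of siPaf1 (Id2 and Id3; 18.8% of genes), 2 of siCdc73 (Id2 and Smad7; 22.5%) and 0 of siSki8 (0.151%). The blocked log2 differences were 0.80 ± 0.27 (Id2) and 1.17 ± 0.32 (Id3) for siPaf1 and 1.15 ± 0.27 (Id2) and 1.18 ± 0.35 (Smad7) for siCdc73. In RNA-seq the blocked fit called Id3 in siPaf1 (32.5% of genes) and siSki8 (5.43%), and 0 members in siCdc73 (39.9%), with blocked log2 differences of Id3 of 1.16 ± 0.33, -1.74 ± 0.45 and 0.58 ± 0.32. Each of the 2 siPaf1 calls in 3'READS was lost when the siCtrl library of batch 2 was left out of that fit, and Id2 also without siCtrl or siPaf1 of batch 1. In siCdc73 the Id2 call was lost without siCtrl or siCdc73 of batch 2, and the Smad7 call was lost without any 1 of the siCtrl and siCdc73 libraries. The Id3 call in RNA-seq was lost in siPaf1 without siCtrl or siPaf1 of batch 2 and in siSki8 without siCtrl of batch 1.

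Of the isoform tests, CDS-APA (upstream sites against the 3'-most exon) called Smad7, 1 of the 2 members tested, in siPaf1 (2.38% of 1766 genes) and siCdc73 (4.13%), and again with the block (23.0% and 23.2%). Without the block these Smad7 calls were lost when any library of the compared groups was left out, or when sites under 5% were kept, and with the block they were kept in every fit that left out 1 library. The antisense test called Id3, 1 of 2 members tested, in siPaf1 (0.0902% of 1109 genes) and in siCdc73 (0.271%), and again with the block (2.07% and 2.16%). Without the block the Id3 calls were lost without siCtrl of batch 1 and, in siPaf1, without siPaf1 of batch 1. With it, the siCdc73 call was lost without either siCdc73 library and the siPaf1 call was kept throughout. With a minimum of 30 antisense reads in place of 10, this test called 0 genes without the block. 3'UTR-APA (proximal against distal site of the 3'-most exon) called 0 of 5 members with or without the block, which called 6.79% and 4.29% of 4567 genes in siPaf1 and siCdc73.

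The levels of a few other genes followed those of the Id genes most closely over the 7 3'READS libraries, given here as a description over libraries that share batches and controls. Among 8311 genes whose mean was 50 reads or more, Smarcal1 (Pearson r = 0.99), Tap1 (0.99) and Man2b2 (0.98) were most like Id1, Pofut2, Fat4 and Cxxc1 (0.98 each) most like Id2, and Dzip1, Cyp26a1 and Ccnt2 (0.96 each) most like Id3. Smarcal1, which encodes a helicase that remodels stalled replication forks, stood at 97.5 and 28.1 CPM in siCtrl, 84.7 and 38.0 in siPaf1, 87.1 and 49.3 in siCdc73 and 15.0 in siSki8, higher in batch 1 in each replicated group, like Id1. Fat4, a large protocadherin, stood at 1.95 and 1.80 CPM in siCtrl, 4.65 and 6.48 in siPaf1, 7.82 and 10.3 in siCdc73 and 0.569 in siSki8, lowest in siSki8 and highest in siCdc73, like Id2. Between the Id genes r was 0.84 for Id2 and Id3, 0.65 for Id1 and Id2 and 0.53 for Id1 and Id3. Many other genes lay closer to each of them. By r, Id3 ranked 211 for Id2, Id2 ranked 121 for Id3, and Id2 and Id3 ranked 1190 and 1685 for Id1.

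Genes that act with the members were tested from a list of 90 other genes of BMP and TGF-beta signalling and of the bHLH partners of Id proteins, of which 62 could be tested in 3'READS and 40 in RNA-seq. This list was chosen with earlier results of these data known. The adjusted p-values and counts below are therefore not those of an independent list. Without the batch term, edgeR called 0 of them in either assay (5, 6 and 2 at an unadjusted p under 0.05 in 3'READS and 7, 5 and 3 in RNA-seq for siPaf1, siCdc73 and siSki8), and DESeq2 called 1 in siPaf1 (Grem1) and 1 in siCdc73 (Ctdspl) in 3'READS, and 2 in siCdc73 (Myf6 and Rgma) in RNA-seq. Once batch was a block in the model, 3'READS had 4 of them higher and 3 lower in siPaf1, 7 higher and 5 lower in siCdc73 and 0 called in siSki8, and RNA-seq had 8 higher and 7 lower, 7 higher and 9 lower, and 0 higher and 1 lower. The same fit called 18.8%, 22.5% and 0.151% of all genes in 3'READS and 32.5%, 39.9% and 5.43% in RNA-seq, and neither these counts nor those of the role groups that follow were tested against those shares. The values that follow are from the blocked fit of edgeR.

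Of the bHLH genes listed as partners of Id proteins, 3 of 5 tested rose in RNA-seq of siPaf1 (where 32.5% of all genes were called) and 4 of 5 in siCdc73 (39.9%). The siCdc73 count takes in Myf5, at 0.66 ± 0.25 on the log2 scale (adjusted p = 0.0341), whose call was lost in every fit that left out 1 library. The E protein gene Tcf3 stood at 190.2 and 131 CPM in siCtrl, 333 and 404 in siPaf1, 351 and 363 in siCdc73 and 163 in siSki8, a log2 difference of 1.21 ± 0.24 (adjusted p = 0.000234) in siPaf1 and 1.16 ± 0.24 (adjusted p = 0.000279) in siCdc73, and both calls were lost without siCtrl of batch 2. Tcf4 changed by 1.26 ± 0.25 (adjusted p = 0.000213) in siPaf1, in every fit that left out 1 library, and by 0.76 ± 0.24 (adjusted p = 0.0139) in siCdc73, where 3 of the 4 such fits lost the call. The myogenic factor gene Myf6, at 0.978 and 0.841 CPM in siCtrl, was 3.12 ± 0.53 higher (adjusted p = 2.34e-05) in siCdc73 and 1.89 ± 0.54 (adjusted p = 0.00802) in siPaf1, where the call was lost without siCtrl or siPaf1 of batch 2. In 3'READS Myf6 stood at 0.300 and 0.662 CPM in siCtrl, 0.903 and 0.132 in siPaf1 and 1.74 and 0.213 in siCdc73. There both knockdowns were above the control in batch 1 and below it in batch 2. In 3'READS 2 of 6 tested rose in siPaf1 (Tcf3 and Tcf4), and in siCdc73 Tcf3 rose while Myog, a gene switched on in differentiation, fell by 1.58 ± 0.39 on the log2 scale (adjusted p = 0.00886), a call lost without siCtrl of batch 2. These 3 calls of Tcf3 and Tcf4 were each lost without either siCtrl library, that of Tcf4 also without siPaf1 of batch 1, and that of Tcf3 in siCdc73 also without siCdc73 of batch 2. Tcf3 in 3'READS stood at 39.5 and 41.8 CPM in siCtrl, 87.0 and 79.5 in siPaf1 and 68.4 and 86.6 in siCdc73. In siSki8 it stood at 89.6 CPM, 2.15 times the control of its batch, unlike in RNA-seq.

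Among the extracellular BMP antagonists, Grem1, whose product binds and blocks BMP ligands including Bmp4, fell in both assays and both knockdowns, and each of these 4 calls was kept in every fit that left out 1 library. In 3'READS Grem1 stood at 150.3 and 105 CPM in siCtrl, 38.2 and 19.0 in siPaf1, 57.1 and 43.1 in siCdc73 and 91.0 in siSki8, and its log2 difference was -2.21 ± 0.29 (adjusted p = 0.000122) in siPaf1 and -1.33 ± 0.28 (adjusted p = 0.0033) in siCdc73. Fst, the follistatin gene, went in opposite directions in RNA-seq, with 25.7 and 8.91 CPM in siCtrl, 60.1 and 16.1 in siPaf1 and 6.50 and 0.958 in siCdc73, or 1.04 ± 0.31 (adjusted p = 0.0113, lost without siCtrl or siPaf1 of batch 1) and -2.18 ± 0.37 (adjusted p = 2.63e-05, kept in every such fit). Of the 6 antagonists tested in RNA-seq, 2 rose and 2 fell in siPaf1 and 3 fell in siCdc73. The difference between the knockdowns was not tested.

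Of 6 receptors and co-receptors tested in RNA-seq, 1 rose and 1 fell in each of siPaf1 and siCdc73. Rgmb, a BMP co-receptor gene, rose by 1.43 ± 0.26 on the log2 scale in siPaf1 (adjusted p = 9.23e-05), and the type I receptor gene Acvr1 fell by 1.00 ± 0.24 (adjusted p = 0.00157), and both calls were lost without siCtrl of batch 2. Another co-receptor gene, Rgma, fell by 2.04 ± 0.33 in siCdc73 (adjusted p = 1.29e-05), from 23.9 and 24.7 CPM in siCtrl to 5.11 and 6.38, and kept its call in every fit that left out 1 library. Rgmb was also the 1 pathway gene of 9 with a CDS-APA call without the batch term, with a log2 difference in upstream against 3'-most reads of 5.10 ± 0.94 in siPaf1 (adjusted p = 0.0286) and 7.02 ± 0.99 in siCdc73 (adjusted p = 0.00942). The first of these calls was lost without either siCtrl library or siPaf1 of batch 2, and the second without siCtrl or siCdc73 of batch 2.

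In the TGF-beta arm, 1 of 6 genes rose and 3 fell in siPaf1 and 4 fell in siCdc73 in RNA-seq. Ltbp1, which encodes a binding protein for latent TGF-beta, fell by 1.20 ± 0.22 (adjusted p = 9.19e-05) in RNA-seq and by 1.37 ± 0.28 (adjusted p = 0.00335) in 3'READS of siPaf1, and kept both calls in every fit that left out 1 library. Of the other Smads, Smad3 rose by 1.01 ± 0.34 in 3'READS of siCdc73 (adjusted p = 0.0403), a call lost without siCtrl of batch 2 or siCdc73 of batch 1, and 0 of 3 changed in RNA-seq. Of 19 intracellular Smad regulators in 3'READS, 2 rose and 1 fell in siPaf1 and 3 rose and 1 fell in siCdc73. Ski, whose product represses Smad targets, stood at 50.1 and 25.7 CPM in siCtrl and 106 and 60.4 in siPaf1 (log2 difference 1.14 ± 0.29, adjusted p = 0.0125, lost without siCtrl of batch 2). Ctdspl, whose product is a small phosphatase that can act on Smads, stood at 35.1 and 33.0 CPM in siCtrl and 14.1 and 7.95 in siCdc73 (log2 difference -1.67 ± 0.31, adjusted p = 0.00146, kept in every fit that left out 1 library). Among 4 other BMP target genes tested in RNA-seq, Atoh8 alone was called, in siSki8, at 6.69 CPM against 17.2 in siCtrl of batch 2 and 74.5 in that of batch 1 (log2 difference -1.83 ± 0.44, adjusted p = 0.0133), and that call was lost without siCtrl of batch 1.

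**Figure D5:**
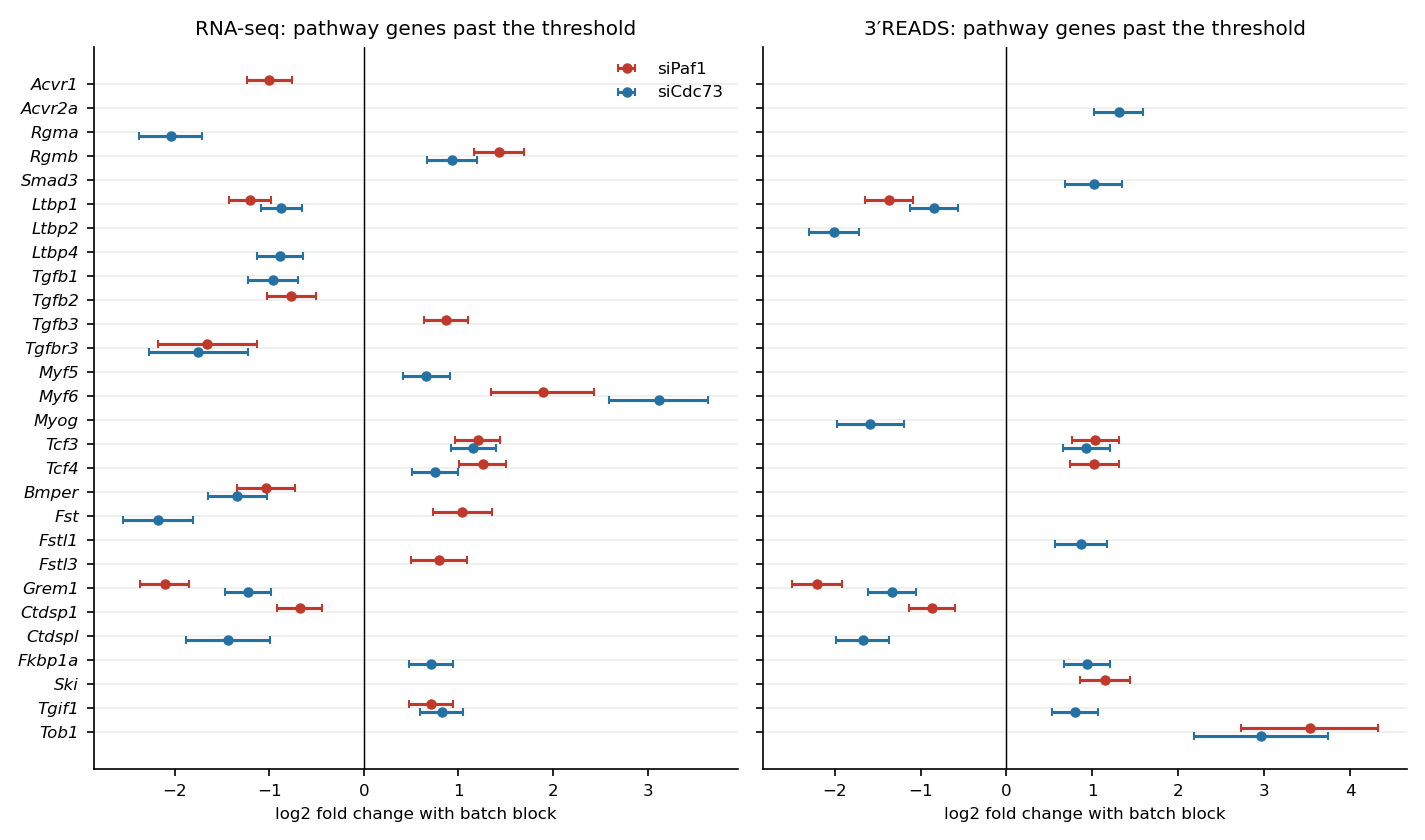
Log2 fold change with its SE, from the edgeR fit with a batch block, for pathway genes that are not among the 10, shown where the adjusted p was under 0.05 in RNA-seq (left) or 3'READS (right) for siPaf1 or siCdc73. Grem1 and Ltbp1 lie below 0 and Tcf3 above 0 wherever they are drawn, and Fst lies on opposite sides in siPaf1 (1.04) and siCdc73 (-2.18).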

How the data were processed

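RNA-seq and 3'READS of C2C12 myoblasts were used, with 7 libraries in each assay (2 siCtrl, 2 siPaf1, 2 siCdc73 and 1 siSki8), grouped by their labels. The ChIP-seq samples of the series were not analysed here. The sources used here name Bowtie2 without a version and the build mm9. For RNA-seq the authors ran it in local mode, kept unique alignments and deposited raw counts for each RefSeq transcript, restricted to coding sequence where a gene has one, from strand-specific, rRNA-depleted libraries. The authors also deposited RPKM values, the same counts divided by length and by mapped reads. For 3'READS the authors deposited counts per pA site of reads whose poly(A) tail was not templated by the genome. The removal of internally primed reads and the grouping of sites are thus the authors', and reads shared between near-identical copies were dropped at mapping. All per-sample columns were matched to a sample by name (0 unmatched).

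A gene was its transcript with the highest mean count in RNA-seq (15033 transcripts of 9999 genes) and the sum of its sense sites in 3'READS. Knockdowns were compared with siCtrl by the quasi-likelihood test of edgeR 4.0.16 in R 4.3.3 (TMM, filterByExpr, prior count 2 for log2 values, Benjamini-Hochberg adjustment, calls at an adjusted p under 0.05), with all 7 libraries in each fit, so that siSki8, a lone library, was assumed to vary like the replicated groups. Without the block, siSki8 is set against the controls of both batches, though it comes from batch 2 only. APA was tested as the interaction of isoform and knockdown after sites under 5% of a gene's reads were left out, in genes averaging 20 reads or more, and antisense RNA in genes with 10 antisense reads or more. The SE of a fitted edgeR difference is its size divided by the square root of the F statistic of the test. A count of 0.5 was added to each isoform before the log2 ratio of a library, and shares have 95% Wilson intervals. Other R packages were DESeq2 1.42.0, limma 3.58.1 and data.table (version 1.17.8). Sequences, shares and figures were made in Python 3.11.15 (matplotlib 3.10.9, pandas 2.3.3, scipy 1.17.1, numpy 2.4.6). The edgeR gene test, and the isoform test with 3'UTR sites, were checked on simulated data for siPaf1. The simulated gene counts varied less within a batch than those of these libraries. DESeq2, the pooled test, CDS-APA, the antisense test and the siSki8 comparisons were not simulated.

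The 10 members and the lists of pathway genes and cell type markers were chosen with earlier results of these data known. Besides the members and the siRNA targets, the text names list genes with an adjusted p under 0.05 with or without the batch block (up to 20 per comparison by smallest p), any list gene counted, and for each Id gene the 3 genes with the highest Pearson r of log2 CPM among those averaging 50 reads or more. Per the labels, equal numbers mark a shared batch, so they pair the libraries. The batch 2 minus batch 1 difference correlated between groups over 6521 genes in RNA-seq (r = 0.620, 0.748 and 0.633) and over 12579 in 3'READS (0.433, 0.610 and 0.432). The test without a batch term is the reference because the study's methods, which tested RNA-seq genes by Fisher's exact test, name no batch term. It ignores the pairing of libraries by batch, so its SEs include the difference between batches. Values from the block are printed where they change a call. Library totals set the precision, and the low ones belong to batch 2 of siPaf1 and siCdc73 (RNA-seq) and batch 1 of siCdc73 (3'READS). Alternatives were the block, scaling by library size alone, no filter on low counts, DESeq2, pooled reads, other site filters and leaving out each library.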

Additional observations from a re-analysis of the deposited data

How the results depend on the processing

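With the replicate block in place of no batch term, the genes called for siPaf1, siCdc73 and siSki8 numbered 2122, 2601 and 354 in RNA-seq (0 without it), 2367, 2832 and 19 in 3'READS (0), 310, 196 and 14 in 3'UTR-APA (0), 406, 409 and 2 in CDS-APA (42, 73 and 0) and 23, 24 and 1 in the antisense test (1, 3 and 0). Of the other pathway genes the block called 15, 16 and 1 in RNA-seq and 7, 12 and 0 in 3'READS, and for siPaf1 and siCdc73 2 and 2 in 3'UTR-APA, 4 and 4 in CDS-APA (1 and 1 without it) and 1 and 1 in the antisense test. The biological coefficient of variation was 0.397 without the block and 0.179 with it in RNA-seq, and 0.515 and 0.247 in 3'READS. Chosen after seeing the data, the block without siPaf1 of batch 2, the library with 199 genes far above the others, called 1634 genes and 6 pathway genes for siPaf1 in 3'READS.

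Without a filter on low counts, 149, 225 and 1 genes were called in RNA-seq (2 pathway genes in siCdc73) and 20 and 22 in 3'READS of siPaf1 and siCdc73. DESeq2 called 368, 518 and 5 genes in RNA-seq (2 pathway genes in siCdc73) and 448, 641 and 0 in 3'READS (1 and 1 pathway genes). Fisher's exact test on pooled reads, which ignores the spread between libraries, called 3121, 3554 and 3170 genes in RNA-seq (18, 23 and 25 pathway genes) and 7137, 6837 and 4538 in 3'READS (33, 29 and 21). Without the 5% filter on sites, CDS-APA called 36 genes in siCdc73, and with a minimum of 30 antisense reads that test called 0 in siPaf1 and 0 in siCdc73. When 1 library was left out, without the block, CDS-APA called 2 to 44 genes in siPaf1 and 2 to 20 in siCdc73, in both cases fewest without siCtrl of batch 2 (0 to 1 pathway genes in each). The antisense test called 0 (without siCtrl of batch 1) to 3 (without siPaf1 of batch 1) in siPaf1 and 1 (without siCtrl or siCdc73 of batch 1) to 3 in siCdc73, and every other count was 0. Over all 527 alternative values of the members, 44 had the other sign and 120 moved by more than the spread, and Id2 and Id3 in 3'READS kept their sign in all of theirs. With 2 libraries a group and 1 for siSki8, and with few reads for Bmp4, Smad6 and the antisense and upstream sites, counting error and the batch limit what can be told apart.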
